A study of Mus musculus with 21 samples.

Results

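Cxcr4, Ccrl2, Ccr1 and Ccr2 encode receptors for chemokines, the small secreted proteins that direct leukocyte movement, and are described here across RAW 264.7 cells exposed to silica particles. They are 4 of the 12393 genes measured on the array. They were picked from measured values: Cxcr4 because its level was raised at the lowest dose of the 500 nm particles, and Ccrl2 because its level was higher with 500 nm than with 10 nm particles. The comparisons behind that choice are given as a description, without a test. These are the change at the 500 nm low dose and the difference between the sizes for each of the 4 genes. Every comparison with 500 nm arrays for Cxcr4 and Ccrl2 is also given without a test. The untreated levels of Cxcr4 and the 10 nm levels of Ccrl2 entered the choice as well. The 10 nm tests of Cxcr4 against untreated cells and all 10 nm tests of Ccrl2 use those levels. They are therefore not independent of the choice. RAW 264.7 is a macrophage-like mouse tumour line. The cells were left untreated or exposed for 2 h, in medium without serum, to amorphous silica of 10 nm at 5, 20 or 50 µg/ml or of 500 nm at 250, 500 or 1000 µg/ml (low, mid and high dose). With 3 arrays in each of 7 groups there were 21 arrays. Nothing in the labels states that replicates came from separate cultures, and p-values therefore reflect array-to-array spread that may be technical. It is also not stated whether the control cells had their serum removed, so serum removal and the particles cannot be told apart. The labels give different plates for growth and for exposure. Because whole-culture RNA was measured, fewer cells making a transcript and less transcript per cell cannot be told apart.

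Chemokine receptors span the membrane repeatedly and signal through inhibitory G proteins to lipid kinases, calcium release and the actin cytoskeleton. Cxcr4 binds Cxcl12 and the cytokine Mif, holds blood cell precursors in the marrow, and is carried by macrophages and by most leukocytes. Ccr1 binds inflammatory chemokines including Ccl3, Ccl5, Ccl7 and Ccl9. Ccr2 is the receptor for Ccl2 and its relatives and draws monocytes out of the marrow into inflamed tissue. Ccrl2 is an atypical member that binds chemerin, the product of Rarres2, without coupling to G proteins in the usual way, and it is known as a gene raised by inflammatory stimuli in macrophages.

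The promoter windows of the 3 members that changed are shown with matches to motifs of known regulators. Some of these regulators, among them NF-kB subunits, Crem and Nrf1, are described further on. The Cxcr4 window held no match to the NF-kB or the cyclic AMP motif. Each window runs from 250 bases before the annotated transcription start to 50 after it, from RefSeq on GRCm38.p6, and all 3 genes lie on the minus strand. Capitals mark matches to the motifs searched.
Cxcr4, chr1:128592250-128592549: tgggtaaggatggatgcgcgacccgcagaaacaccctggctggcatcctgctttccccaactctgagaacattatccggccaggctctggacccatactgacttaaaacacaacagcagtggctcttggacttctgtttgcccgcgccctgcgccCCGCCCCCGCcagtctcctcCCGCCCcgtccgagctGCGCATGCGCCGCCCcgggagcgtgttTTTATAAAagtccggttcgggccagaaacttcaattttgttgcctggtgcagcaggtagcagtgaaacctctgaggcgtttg
Ccrl2, chr9:111057469-111057768: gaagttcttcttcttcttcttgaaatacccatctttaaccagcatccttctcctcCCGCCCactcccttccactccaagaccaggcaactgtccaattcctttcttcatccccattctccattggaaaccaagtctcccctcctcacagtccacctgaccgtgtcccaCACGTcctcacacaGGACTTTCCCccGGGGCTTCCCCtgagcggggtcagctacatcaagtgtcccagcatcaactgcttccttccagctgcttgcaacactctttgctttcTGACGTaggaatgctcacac
Ccr1, chr9:123968643-123968942: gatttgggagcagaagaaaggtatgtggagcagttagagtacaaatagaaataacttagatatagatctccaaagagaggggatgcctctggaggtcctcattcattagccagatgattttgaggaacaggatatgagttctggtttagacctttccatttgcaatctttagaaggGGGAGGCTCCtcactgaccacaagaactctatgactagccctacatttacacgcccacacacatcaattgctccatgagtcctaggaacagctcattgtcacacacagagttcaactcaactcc
The Ccrl2 sequence belongs to the most upstream of its 3 annotated starts. The motifs were AP-1 (TGANTCA), the cyclic AMP response element core (TGACGT), NF-kB (GGGNNNNNCC), NRF-1 (GCATGCGC), the hypoxia response element (ACGTG), the SRF CArG box by name, Egr (GCGNGGGCG), the GC box (GGGCGG) and the TATA box (TATAAA), each on both strands. The Cxcr4 window held 2 overlapping NRF-1 matches between bases -59 and -50, 1 Egr match, 3 GC boxes and 2 overlapping TATA matches between -32 and -25. One of its GC boxes, at -95 to -90, overlaps the Egr match. The Ccrl2 window held 3 NF-kB matches: 1 at -68 to -59, and an overlapping pair from -56 to -46. It also held a cyclic AMP response core at 31 to 36, a hypoxia response element at -82 to -78 and 1 GC box at -195 to -190. The Ccr1 window held 1 NF-kB match at -74 to -65 and none of the other motifs, and the Ccr2 window held no match to the 9 motifs. Among all 32851 promoter windows of this length, 50.8% held the loose NF-kB pattern, 35.7% a GC box, 19.6% the hypoxia element, 13.6% a TATA box, 7.81% the AP-1 site and 7.51% the cyclic AMP response core. The Egr site was in 5.55%, NRF-1 in 2.71% and the CArG box in 1.63% of windows. These matches describe letters and are no evidence of binding.

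Values are log2 expression levels of 1 probe set per gene, and a difference of 1 is a 2-fold change. A gene was called when limma's moderated test gave a Benjamini-Hochberg adjusted p under 0.05 over all 12393 genes. Against untreated cells, 0.767% of all genes were called at the 10 nm low dose, 10.6% at the mid dose and 20.2% at the high dose. For 500 nm particles the shares were 0.428% at the low dose, 2.77% at the mid dose and 15.3% at the high dose. With the replicate block, where replicate numbers paired the arrays, the 1315 calls at the 10 nm mid dose became 2235 and the 2506 calls at the high dose became 4544. Of the 2506 calls at the 10 nm high dose 37.5% were higher than untreated, and of the 1898 at the 500 nm high dose 34.7%. After each array was centred on its median these shares became 62.7% and 57.4%, with rescaling in addition 67% and 66.6%. Centring moved the median of all genes at these doses from 0.04 and 0.07 to 0.14 and 0.17. All these comparisons share the 3 untreated arrays. Macrophage markers marked the cells: 9 of 12 stood at or above the median gene, among them Csf1r at a mean of 13.30 and Cd68 at 12.22, and the list's mean lay between 9.10 and 9.20 in every group. Of the neutrophil, dendritic cell, T cell and fibroblast markers, 1 of 31 did (the neutrophil list's Csf3r), and of 7 B cell markers 2 did, Ighm and Blnk. The replicate 3 array had the narrowest spread of values in 7 of 7 groups.

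Cxcr4 was higher in every exposed group than in untreated cells, and the difference was present at the lowest dose of 10 nm silica. Its level in untreated cells was 5.93, 6.08 and 6.24 on the 3 arrays. At the 10 nm low dose it was 7.68, 7.51 and 7.19, at the mid dose 7.85, 8.03 and 7.83, and at the high dose 8.22, 7.79 and 8.11. Every array of the 3 doses lay above every untreated array. The rise was 1.38 ± 0.16 (SE, n = 3 arrays a group) at the low dose, 1.82 ± 0.16 at the mid dose and 1.96 ± 0.16 at the high dose, which is 2.60-fold at the low and 3.88-fold at the high dose. Limma's adjusted p was 5.58e-05, 2.11e-07 and 6.82e-08, and each of the 15 alternatives tried kept these 3 calls. Cxcr4 was thus among the 0.605% of genes called higher at the 10 nm low dose. The untreated levels of Cxcr4 entered the choice of the gene, so these 3 tests are not independent of that choice.

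The 500 nm particles gave Cxcr4 levels of 8.23, 7.75 and 7.72 at the low dose, 8.48, 8.19 and 8.05 at the mid dose, and 7.95, 7.61 and 7.64 at the high dose. Group means exceeded the untreated mean by 1.81, 2.16 and 1.65. These describe the values used to choose the gene. The mid dose stood highest, and its 3 arrays lay above all 3 of the high dose, a difference of -0.51 from mid to high. From the low to the mid dose the means differed by 0.34 and the arrays overlapped.

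Within 10 nm silica, Cxcr4 differed by 0.45 ± 0.16 between the low and the mid dose, with every mid-dose array above every low-dose array. This step was not called (adjusted p = 0.158, between 0.0387 and 0.463 over 15 alternatives), against 4.7% of all genes. The mid and high doses overlapped and differed by 0.14 ± 0.16. By mean level the order was 500 nm mid, 10 nm high, 10 nm mid, 500 nm low, 500 nm high, 10 nm low and untreated. Each exposed group overlapped the next in that order, while the lowest of them, 10 nm low, stood 1.38 above untreated cells without overlap.

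**Figure D1:**
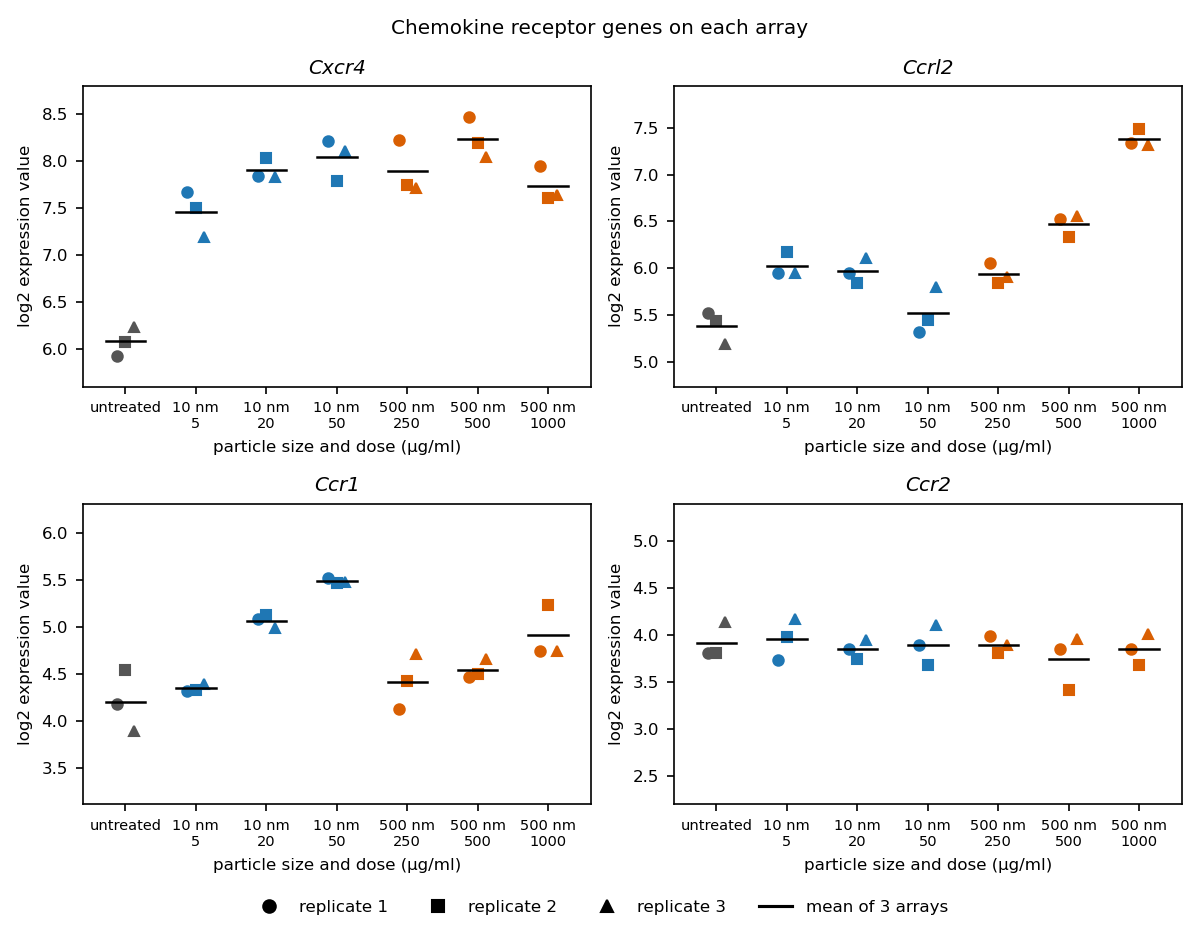
Log2 expression value of Cxcr4, Ccrl2, Ccr1 and Ccr2 on each of 21 arrays (vertical axes, each covering the same span of log2 units) by particle size and dose in µg/ml (horizontal axes). Symbols are replicates and bars are means of 3 arrays. Cxcr4 lies above untreated cells at every dose, Ccrl2 climbs with 500 nm dose to a mean of 7.38, Ccr1 climbs with 10 nm dose to 5.49, and the Ccr2 groups overlap.

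Ccrl2 rose at the 10 nm low and mid doses and stood near its untreated level at the 10 nm high dose, while its level climbed over the 3 doses of 500 nm silica. In untreated cells its level was 5.53, 5.44 and 5.20. At the 10 nm low dose it was 5.95, 6.17 and 5.95, and at the mid dose 5.95, 5.84 and 6.11, above every untreated array in each case. At the 10 nm high dose it was 5.32, 5.46 and 5.80 and overlapped untreated cells. The rise was 0.64 ± 0.13 at the low dose (limma adjusted p = 0.0154) and 0.58 ± 0.13 at the mid dose (adjusted p = 0.00438), and both passed. The difference at the high dose, 0.14 ± 0.13, did not (adjusted p = 0.452). The 10 nm levels were 1 side of the size difference used to choose Ccrl2, so these tests are not independent of that choice. Ccrl2 and Cxcr4 were the members called at the 10 nm low dose. The low-dose call for Ccrl2 depended on single arrays. Without untreated replicate 3 the adjusted p was 0.0907 and without 10 nm low replicate 2 it was 0.0993, within a range of 0.000548 to 0.201 over 15 alternatives, 12 of which kept the call. The mid-dose call was lost when all replicate 3 arrays were left out (0.41, adjusted p = 0.0537), an alternative chosen after seeing the data, and held in the other 14.

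With 500 nm particles Ccrl2 stood at 6.06, 5.85 and 5.91 at the low dose, 6.52, 6.34 and 6.56 at the mid dose and 7.33, 7.49 and 7.31 at the high dose. No array of one dose overlapped the next, and all lay above untreated cells. The group means exceeded the untreated mean by 0.55, 1.09 and 1.99, with differences of 0.54 from the low to the mid dose and 0.90 from the mid to the high dose. These values are a description, because the gene was picked for its 500 nm level.

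Within 10 nm silica the Ccrl2 step from the mid to the high dose was -0.44 ± 0.13, with all 3 high-dose arrays below all 3 mid-dose arrays. Its unadjusted p of 0.00253 became 0.841 after adjustment, and the test is again not independent of the choice of the gene. In that step limma called 0 of 12393 genes (0%), 543 genes had an unadjusted p under 0.05, the replicate block called 4 and array weights 320. Ccrl2 was called with array weights (-0.49, adjusted p = 0.00211) and in none of the other 14 alternatives. From the 10 nm low to the mid dose it differed by -0.06 ± 0.13 with overlapping arrays, and the sign turned to 0.036 when arrays were centred on their median. In order of mean level the 500 nm high and mid doses led without overlap with each other or with the next group. The 10 nm low, 10 nm mid and 500 nm low doses followed with overlapping arrays, and then, below a gap of 0.41, the overlapping 10 nm high and untreated groups.

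Ccr1 rose with the mid and high doses of 10 nm silica. Its level was 4.18, 4.54 and 3.90 in untreated cells, 4.32, 4.33 and 4.40 at the 10 nm low dose, 5.08, 5.13 and 4.99 at the mid dose, and 5.53, 5.47 and 5.48 at the high dose. The low dose lay inside the untreated range, while the mid and high doses lay above it and did not overlap each other. The rise was 0.86 ± 0.16 at the mid dose (limma adjusted p = 0.00102) and 1.29 ± 0.16, or 2.44-fold, at the high dose (adjusted p = 1.03e-05), and both calls held in 14 of 14 alternatives. At the low dose the difference was 0.14 ± 0.16 (adjusted p = 0.950). The step from low to mid was called (0.72 ± 0.16, adjusted p = 0.00973) and the step from mid to high was not (0.42 ± 0.16, adjusted p = 0.876).

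With 500 nm silica Ccr1 stood at 4.13, 4.43 and 4.71 at the low dose, 4.47, 4.51 and 4.66 at the mid dose, and 4.75, 5.24 and 4.75 at the high dose. The low and mid doses overlapped untreated cells, and the high dose did not. The high-dose rise of 0.71 ± 0.16 was called (limma adjusted p = 0.00417) and the mid-dose difference of 0.34 ± 0.16 was not (adjusted p = 0.399). The high-dose call was lost after quantile normalization (0.53, adjusted p = 0.0653) and in a fit of the 2 groups alone (adjusted p = 0.08855), and 12 of 14 alternatives kept it, with adjusted p from 0.00106 up to that last value. The low-dose mean differed from untreated cells by 0.22, as a description. The steps from low to mid (0.12 ± 0.16) and from mid to high (0.37 ± 0.16, adjusted p = 0.364) were not called. In order of mean level, 10 nm high stood apart from 10 nm mid, which overlapped 500 nm high, and below these the 500 nm mid, 500 nm low, 10 nm low and untreated groups overlapped from one to the next.

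Ccr1 was dim, at the 28.3rd percentile of mean level. Its other probe set, dimmer still at a mean of 2.95, differed from untreated cells by 0.04, 0.06 and 0.29 at the 10 nm doses and by -0.17, -0.24 and 0.03 at the 500 nm doses. The 2 probe sets thus disagreed in size, and for the 500 nm low and mid doses in sign. With the mean of both probe sets, the 10 nm step from low to mid was 0.37 and was not called (adjusted p = 0.0999, between 0.000286 and this value over 14 alternatives). Mean levels of marker lists of other cell types, mostly dim genes, were also higher at the 10 nm high dose than in untreated cells. The means were 4.72 against 4.43 for 9 neutrophil markers, 4.59 against 4.338 for 8 T cell markers and 4.46 against 4.15 for 8 fibroblast markers. Over arrays, the neutrophil mean ran from 4.57 to 4.90 at that dose and from 4.38 to 4.51 in untreated cells. At the 500 nm high dose, where Ccr1 was also called, the means were 4.67 for neutrophil (4.54 to 4.83 over arrays), 4.56 for T cell and 4.38 for fibroblast markers, and at the 10 nm mid dose 4.60, 4.52 and 4.37. The 6 dendritic cell markers had a mean of 4.59 in untreated cells, 4.77 at the 10 nm mid dose, 4.83 at the 10 nm high dose and 4.85 at the 500 nm high dose. Ccr1 was not called at the 10 nm low or the 500 nm mid dose. At the 10 nm low dose the means were 4.54 for neutrophil, 4.41 for T cell, 4.36 for fibroblast and 4.76 for dendritic cell markers. At the 500 nm mid dose they were 4.63, 4.54, 4.23 and 4.69. The 7 B cell markers had a mean of 5.97 in untreated cells. Their mean was 6.06, 5.97 and 6.05 at the 10 nm low, mid and high doses and 6.09 at the 500 nm high dose. The part of the drift of these lists in the Ccr1 results was not tested.

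Ccr2 was not called at any dose. Its level was 3.81, 3.81 and 4.14 in untreated cells, 3.74, 3.98 and 4.18 at the 10 nm low dose, 3.85, 3.75 and 3.95 at the mid dose, and 3.90, 3.68 and 4.11 at the high dose. With 500 nm silica it was 3.99, 3.81 and 3.90, then 3.86, 3.42 and 3.96, then 3.86, 3.69 and 4.02 from the low to the high dose. All groups overlapped untreated cells, and the 7 group means spanned 0.22. The differences tested ran from -0.17 ± 0.15 at the 500 nm mid dose to 0.05 ± 0.15 at the 10 nm low dose, with limma adjusted p from 0.740 to 0.991, and no alternative called 1 of them. Its other 2 probe sets differed from untreated cells by -0.04 to 0.12. Ccr2 stood at the 14.9th percentile of mean level, so these values do not show whether a low transcript level changed.

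The sizes are compared by values alone, since the choice of the genes used them. At the low doses, which have equal nominal surface area (dose divided by diameter), the 10 nm mean of Cxcr4 was 0.44 below the 500 nm mean with no overlap, while Ccrl2 differed by 0.09 and Ccr1 by -0.07 with overlapping arrays. The mid dose of 10 nm and the high dose of 500 nm silica, each 4 times the nominal area of the low dose, were the other pair with equal area. In it the 10 nm level of Ccrl2 was lower by 1.41 without overlap, whereas Cxcr4 (0.17) and Ccr1 (0.15) overlapped. At the mid doses the 10 nm minus 500 nm difference was -0.34 for Cxcr4, -0.50 for Ccrl2 and 0.52 for Ccr1, and in each gene the arrays did not overlap. At the high doses it was 0.31 for Cxcr4 with overlap, -1.85 for Ccrl2 and 0.58 for Ccr1 without. Ccr2 differed by between 0.00 and 0.11 in size across these 4 pairs, all overlapping.

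**Figure D2:**
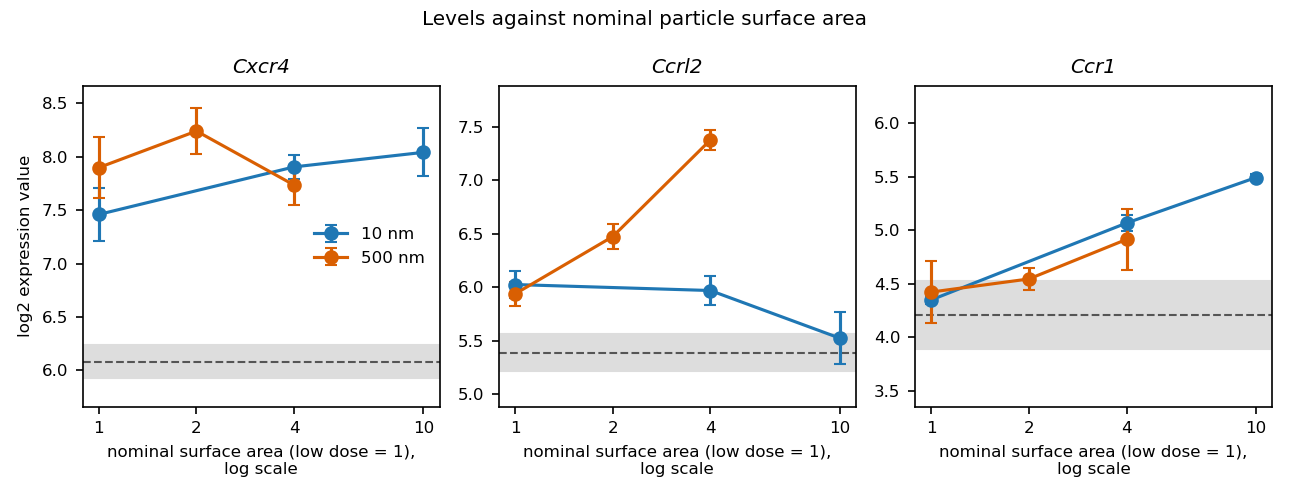
Mean log2 expression value of Cxcr4, Ccrl2 and Ccr1 (vertical axes) against nominal particle surface area relative to the low dose (horizontal axes, log scale), with bars of 1 SD over 3 arrays. The dashed line and grey band are the untreated mean and SD. At 4 times the low-dose area Ccrl2 means were 5.97 with 10 nm and 7.38 with 500 nm particles, while those of Ccr1 were 5.07 and 4.92.

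The genes whose 7 group means most resembled each member were taken from genes at or above the median level whose group means spanned at least 1 log2 unit, 341 for Cxcr4 and 342 for the others. These r values are a description over 7 means that share the untreated group. For Cxcr4 they were Gpr137b (r = 0.948), Chac1 (0.905), Pmp22 (0.905), Bcar3 (0.892) and Ccl3 (0.885). Chac1 degrades glutathione and is a target of the integrated stress response, and Ccl3 is itself a chemokine. The changes of Gpr137b ran from 0.95 to 1.24 over the 6 doses, narrower than those of Cxcr4.

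For Ccrl2 the nearest genes were Hmgcs1 (r = 0.983), Slc7a11 (0.974), Slfn2 (0.970), Ddit3 (0.969) and Trib3 (0.963). Hmgcs1 is an enzyme of sterol synthesis, Slc7a11 imports cystine, and Ddit3 and Trib3 are known targets of the integrated stress response. Slc7a11 differed from untreated cells by 2.12 at the 500 nm high dose and by -0.04 at the 10 nm high dose, and Hmgcs1 by 1.03 and 0.08. Ddit3 and Trib3 stood 0.56 and 0.47 above untreated cells at the 10 nm high dose, where Ccrl2 stood 0.14 above. For Ccr1 they were Emp1 (r = 0.975), Dnajb9 (0.974), Ccnl1 (0.967), Cd44 (0.965) and Sat1 (0.962). Dnajb9 is a chaperone of the endoplasmic reticulum, Cd44 is a hyaluronan receptor and Sat1 degrades polyamines. Emp1 differed by 2.35 at the 10 nm high dose and 1.27 at the 500 nm high dose, and Cd44 by 1.54 and 0.54. Ccr2 had too narrow a span to be matched.

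**Figure D3:**
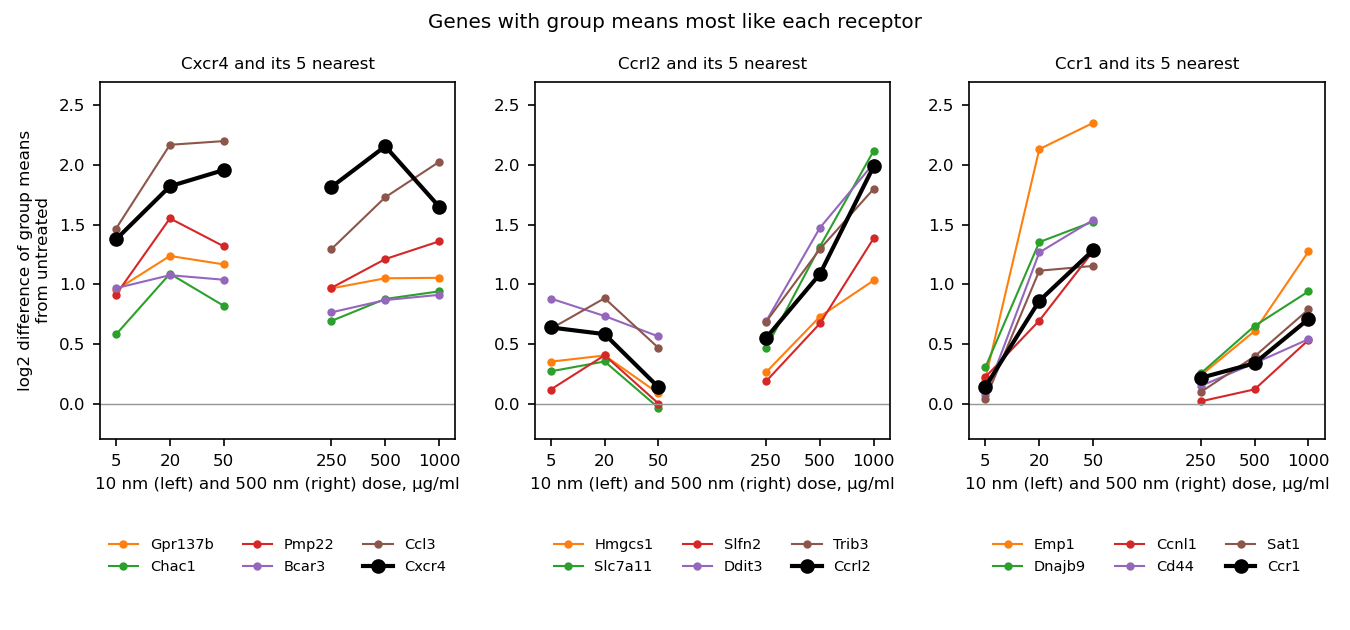
Difference of group means from untreated cells in log2 units (vertical axes) by 10 nm and 500 nm dose in µg/ml (horizontal axes) for Cxcr4, Ccrl2 and Ccr1 (black) and the 5 genes with the highest r to each. Slc7a11 and Ccrl2 reach 2.12 and 1.99 at 1000 µg/ml of 500 nm silica and lie near 0 at 50 µg/ml of 10 nm silica.

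Ligands of the 4 receptors were described from a list of 13 genes, 12 of them measured. At the 10 nm high dose 4 rose and 0 fell, and at the 500 nm high dose 4 rose and 0 fell, where 7.58% and 5.31% of all genes were called higher. The list's median was 0.18 and 0.23, beside 0.04 and 0.07 over all genes. Ccl4, an inflammatory chemokine, rose by 3.42 ± 0.12 and 3.22 ± 0.12 (limma adjusted p = 1.46e-13 and 4.25e-13). Ccl3, a ligand of Ccr1, rose by 2.20 ± 0.15 and 2.03 ± 0.15 from a mean of 11.49 ± 0.45 (SD, n = 3) in untreated cells. At the low doses Ccl3 stood 1.47 higher with 10 nm and 1.29 higher with 500 nm silica. Ccl2, the main ligand of Ccr2, rose by 3.61 ± 0.30 at the 10 nm high dose and by 1.68 ± 0.30 at the 500 nm high dose. Its mean was 5.33 ± 0.47 (SD) in untreated cells, 5.73 at the 10 nm low dose and 8.76 at the 10 nm mid dose. Ccl7, which binds Ccr1 and Ccr2, rose by 0.86 ± 0.16 at the 10 nm high dose (adjusted p = 0.000559) and differed by 0.26 ± 0.16 at the 500 nm high dose (adjusted p = 0.283). The remaining call was Ccl9 at the 500 nm high dose (0.37 ± 0.11, adjusted p = 0.0219). The Cxcr4 ligand Cxcl12 differed by 0.09 and 0.33, Mif by -0.09 and 0.18, and the Ccrl2 ligand Rarres2 by 0.10 and 0.10, none of them called. Cxcl12 was dim, at 3.45 in untreated cells, so its values do not show whether a low transcript level changed. Ccl2, Ccl3 and Ccl4 were called at both high doses in every alternative run, as was Ccl7 at the 10 nm high dose.

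Among the other chemokine receptors, the largest changes at the high doses were those of Cx3cr1, the fractalkine receptor of monocytes and macrophages. Cx3cr1 fell by 0.74 ± 0.12 at the 10 nm high dose and by 1.21 ± 0.12 at the 500 nm high dose (limma adjusted p = 0.000216 and 8.60e-07). Its mean was 11.30 ± 0.10 (SD) in untreated cells, 10.55 ± 0.11 and 10.09 ± 0.18 in those groups. The 10 nm call was lost when arrays were centred and rescaled (-0.45, adjusted p = 0.0817) and with the mean of its probe sets (-0.70, adjusted p = 0.0988). Of the 14 measured receptors of this list, 2 were higher and 1 lower at the 10 nm high dose and 1 higher and 1 lower at the 500 nm high dose. Over all genes, 7.58% and 5.31% were called higher, and 12.6% and 10% lower. The 500 nm count called higher thus lies near the background, and the counts called lower do not exceed it. The receptors called higher were Cxcr3 at the 10 nm high dose (0.47 ± 0.12, adjusted p = 0.00961) and Cxcr2 at both high doses (0.45 ± 0.15 and 0.47 ± 0.15, adjusted p = 0.0369 and 0.0362). Cxcr2 lost its calls without untreated replicate 1 or 2, and also without 10 nm high replicate 2 or 3, or without 500 nm high replicate 3. Its adjusted p in these fits ran from 0.0687 to 0.199. Quantile normalization also ended both Cxcr2 calls (0.23 and 0.30, adjusted p = 0.151 and 0.0627), as did a fit of the 2 groups alone. Cxcr3 lost its call without 10 nm high replicate 2 (adjusted p = 0.059) and in the fit of the 2 groups alone (adjusted p = 0.142). The other 11 differed by -0.03 to 0.38 at both high doses, and none was called. Most of them were dim, such as Ccr3 at 3.37, Ccr8 at 3.42 and Cxcr6 at 3.26 in untreated cells. For these the values do not show whether a low transcript level changed.

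Of 11 measured atypical and other chemoattractant receptors, 2 were called higher at the 10 nm high dose and 1 at the 500 nm high dose, and none was called lower. Over all genes 7.58% and 5.31% were called higher, so the 500 nm share lies near the background. C3ar1, the receptor of the complement fragment C3a, rose by 2.07 ± 0.10 and 1.90 ± 0.10 (limma adjusted p = 2.95e-11 and 1.31e-10). It stood 0.89 higher at the 10 nm low dose and 0.42 higher at the 500 nm low dose, and its second probe set differed by 1.77 and 1.13 at the high doses. Ackr2, a decoy receptor for inflammatory chemokines, was called at the 10 nm high dose (0.50 ± 0.16, adjusted p = 0.0365) and differed by 0.07 at the 500 nm high dose. The Ackr2 call was lost without untreated replicate 1 or 2 and without 10 nm high replicate 2 or 3, with adjusted p from 0.0519 to 0.171. Quantile normalization (0.31, adjusted p = 0.0981), the mean of probe sets (0.37, adjusted p = 0.0575) and a fit of the 2 groups alone (adjusted p = 0.174) also ended it. Ackr3, which also binds Cxcl12, differed by 0.43 ± 0.19 and 0.47 ± 0.19, and was not called (adjusted p = 0.126 and 0.111). The chemerin receptor Cmklr1 differed by 0.17 and 0.19, also without a call. Ackr3 and Cmklr1 were dim, at 2.72 and 3.61 in untreated cells, so a change of a low transcript level could be missed.

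**Figure D4:**
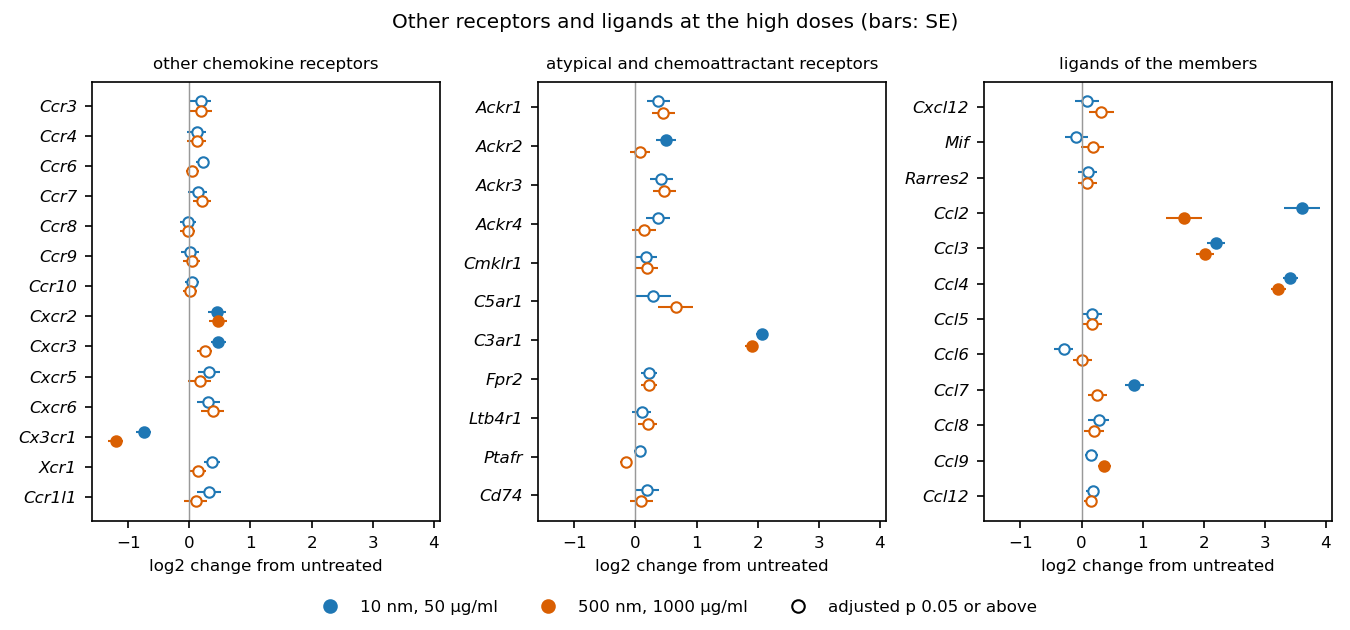
Log2 change from untreated cells with its SE (horizontal axes) at the high dose of each size for the measured members of 3 gene lists (vertical axes). Filled points passed an adjusted p of 0.05 in limma and open points did not. Ccl2, Ccl3, Ccl4 and C3ar1 stand apart from most other genes of the lists, and the filled points left of 0 are those of Cx3cr1 at both sizes.

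Of 25 measured genes for the G proteins and effectors downstream of the receptors, limma called 0 higher at either high dose, 1 lower at the 10 nm high dose and 2 lower at the 500 nm high dose. Over all genes 20.2% and 15.3% were called in either direction. Under the 3 rescalings the count called higher became 1 to 2 at the 10 nm high dose, and at the 500 nm high dose 1 with centring and 3 with rescaling in addition. The kinase Jak2 fell by 0.79 ± 0.14 and 0.71 ± 0.14 (adjusted p = 0.000337 and 0.000985), and Pik3cg, the lipid kinase driven by G protein beta-gamma subunits, fell by 0.86 ± 0.14 at the 500 nm high dose (adjusted p = 0.000285). At the 10 nm high dose Pik3cg differed by -0.27 ± 0.14. The median of the list was -0.13 and 0.04. The count called lower at the 10 nm high dose rose to 5 with the replicate block, and to 3 without untreated replicate 3.

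The list for receptor desensitisation and turnover holds receptor kinases, arrestins, regulators of G protein signalling and enzymes of endosomal sorting. Of 24 measured, 4 were called higher and 9 lower at the 10 nm high dose, where 7.58% of all genes were called higher and 12.6% lower. At the 500 nm high dose 2 were higher and 5 lower, beside 5.31% and 10% of all genes. The list's median was -0.22 and -0.14. The members called higher were regulators of G protein signalling (Rgs), which speed the switching off of G proteins, but the family went both ways: Rgs10 (-0.35), Rgs18 (-0.94) and Rgs19 (-0.40) were called lower at the 10 nm high dose. Rgs1 rose by 2.57 ± 0.09 and 2.71 ± 0.09 (limma adjusted p = 1.44e-13 and 6.78e-14), and it stood 1.56 and 1.32 higher at the 10 nm and 500 nm low doses. Rgs2 rose by 1.32 ± 0.10 and 1.09 ± 0.10. Rgs16 rose by 1.54 ± 0.15 at the 10 nm high dose and differed by 0.38 ± 0.15 at the 500 nm high dose (adjusted p = 0.0887, between 0.00114 and 0.242 over its alternatives). Of these, 7 called Rgs16, the replicate block, the mean of probe sets (0.56, adjusted p = 0.0123) and the fit without 500 nm high replicate 3 included. The other Rgs16 probe sets differed by 2.01 and 0.85 at the 10 nm high dose and by 0.99 and 0.30 at the 500 nm high dose. The fourth, at the 10 nm high dose, was Rgs3 (0.50 ± 0.13).

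The members called lower at both high doses were Stambp, Usp8, Arrb1, Rgs18 and Prkcd, and Grk6 and Vps4a were called lower at the 10 nm high dose besides Rgs10 and Rgs19. Stambp, an enzyme that removes ubiquitin from receptors on endosomes, fell by 1.70 ± 0.14 and 0.87 ± 0.14 (limma adjusted p = 5.32e-08 and 0.000205). Usp8, another deubiquitinase of endosomes, fell by 0.81 ± 0.12 and 0.63 ± 0.12. Arrb1, which encodes a beta-arrestin, fell by 0.55 ± 0.18 and 0.64 ± 0.18. The 10 nm count of 9 became 5 without 10 nm high replicate 3 and 2 in a fit of the 2 groups alone. Centring and rescaling also gave 5.

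Among 16 measured regulators of transcription named for these receptors, 4 were called higher and 2 lower at each high dose, with a median of -0.16 and 0.25. Over all genes 7.58% and 5.31% were called higher, and 12.6% and 10% lower, so the count called lower lies near the background. Klf2, a zinc finger factor of endothelium and leukocytes, rose by 4.16 ± 0.13 at the 10 nm high dose and by 1.40 ± 0.13 at the 500 nm high dose (limma adjusted p = 2.90e-14 and 3.23e-07). Crem, a factor of the cyclic AMP response, rose by 1.17 ± 0.16 and 1.98 ± 0.16, and its second probe set differed by 1.004 and 1.51. The remaining, dim Crem probe set differed by -0.39 and -0.40. Rel, a subunit of NF-kB, rose by 1.98 ± 0.15 at the 500 nm high dose (adjusted p = 1.90e-08). At the 10 nm high dose the Rel change was 0.52 ± 0.15 (adjusted p = 0.0203), a call lost without untreated replicate 1 and without 10 nm high replicate 1 or 2, with adjusted p from 0.0561 to 0.0745, and in a fit of the 2 groups alone (adjusted p = 0.108). Rela, another NF-kB subunit, rose by 0.29 ± 0.09 and 0.39 ± 0.09. Relb differed by -0.62 ± 0.21 at the 10 nm high dose (adjusted p = 0.0466) and by 0.61 ± 0.21 at the 500 nm high dose (adjusted p = 0.0608). The 10 nm Relb call was lost without untreated replicate 1 or 2 and without 10 nm high replicate 3, with adjusted p from 0.139 to 0.266, and under each of the 3 rescalings tried and in the fit of the 2 groups alone. At the 500 nm high dose 6 alternatives called Relb, the replicate block among them. Egln1, an oxygen sensor that marks Hif1a for degradation, fell by 0.61 ± 0.14 and 0.53 ± 0.14, and the remaining call, at the 500 nm high dose, was Nr3c1 (-0.39 ± 0.11). The count of 2 lower at that dose fell to 0 without untreated replicate 3 or without 500 nm high replicate 2. Nrf1 differed by -0.18 at the 10 nm and 0.16 at the 500 nm high dose, and Hif1a by 0.05 and 0.06, without a call.

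Genes beside the members on the chromosome are given against the 20.2% of all genes called at the 10 nm and 15.3% at the 500 nm high dose. Ccr1 and Ccr2 lie in 1 cluster of receptor genes on chromosome 9, Ccrl2 lies elsewhere on that chromosome, and Cxcr4 is on chromosome 1. Of 8 measured neighbours of Cxcr4, limma called 1 at the 10 nm high dose, Ubxn4 (0.50 ± 0.14, adjusted p = 0.0207), and 0 at the 500 nm high dose. Of 13 measured neighbours on chromosome 9, 2 were called at each high dose. Fyco1, which lies among the receptor genes and encodes a transporter adaptor of autophagosomes, fell by 1.18 ± 0.17 and 1.25 ± 0.17 (adjusted p = 4.97e-05 and 2.97e-05). The others were Epm2aip1 (-0.49 ± 0.14) at the 10 nm high dose and Rtp3 (0.81 ± 0.21) at the 500 nm high dose. The other receptor genes of the cluster, Ccr3, Ccr9, Cxcr6, Xcr1 and Ccr1l1, were dim and were not called at the high dose of any size.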

How the data were processed

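The authors deposited a table with 1 value for each probe set on each array. RMA is named in the submitters' processing notes, with no version or settings. RMA commonly corrects background, equalises arrays and summarises probes, and dim genes then show compressed changes. Where arrays are equalised, a shift common to most genes is lost. The deposited arrays were not fully equalised, since their SD ran from 2.46 to 2.67 log2 units. How much of a common shift remains in them cannot be told. The deposited values were read as log10, because the highest, 4.343, is then 22019 intensity units and in base 2 only 20.3; every fold change rests on that reading. They were multiplied by 3.32 to give log2 values. Precision is limited by the number of arrays, which have no depth.

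Of 22690 probe sets, 20380 had 1 gene symbol in the platform annotation (possibly outdated); 691 had several symbols and were left out with the unnamed ones. The probe set with the highest mean stood for each of 12393 genes, and the 4 members had 7 probe sets. Samples were grouped by their titles. Limma 3.58.1 in R 4.3.3 fitted group alone on all 21 arrays (14 residual and 4.80 prior degrees of freedom, two-sided, Benjamini-Hochberg over all genes), after a test on simulated data. Figures used matplotlib 3.10.9 in Python 3.11.15.

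Same-numbered arrays deviated together (every correlation over 0.1) in the 10 nm mid and high comparisons with untreated cells (0.43 to 0.72), in both 10 nm steps, in the 500 nm step from low to mid and between the high doses; in the others at least 1 pair did not.

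The lists were other chemokine receptors, atypical and chemoattractant receptors, ligands, G proteins and effectors, desensitisation and turnover genes, transcription regulators, and markers of 6 cell types. From each gene list, up to 4 members were named, those that changed most and passed the test at a high dose; other names were added after their values were seen, to account for small counts. Members and lists were chosen with earlier results of these data known. Alternatives were a replicate block, quantile normalization, median centring with and without rescaling, array weights, the 2 groups alone, a filter on dim genes, the mean of probe sets, each array left out and, chosen after seeing the data, all replicate 3 arrays left out.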

Additional observations from a re-analysis of the deposited data

Results flagged for a closer look

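The Ccrl2 step from the mid to the high dose was picked out because its arrays moved in opposite directions with the 2 particle sizes. With 10 nm silica it was -0.44, all 3 high-dose arrays lying below all 3 mid-dose arrays. With 500 nm silica it was 0.90, all 3 high-dose arrays lying above. The difference between the steps was not tested, the doses differ between sizes, and the gene was chosen for its higher level with 500 nm particles.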

How the results depend on the processing

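Of the members' values recomputed under alternatives, 658 were counted as unchanged. For tested values this means the same direction and side of the threshold, and for values without a test a move under 1 SD. Among tested values 40 changed sign, 7 lost and 3 gained a call. Of the values without a test, 2 moved beyond 1 SD. Sign changes were not counted in values without a test, such as Ccr1 at the 500 nm low dose (-0.083 to 0.38). The calls for Cxcr4 at the 10 nm doses and for Ccr1 at the 10 nm mid and high doses held in all alternatives run. Ccr1 and Ccr2 fell under the filter on dim genes, so that alternative gives no value for them. No depth applies to arrays; dim signal limits Ccr1 and Ccr2. The causes of the changes below were not tested. Differences are log2.

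The replicate block changed no call of the 4 receptors. It called 214, 2235 and 4544 genes at the 10 nm low, mid and high doses, and 110, 710 and 3433 at the 500 nm doses. Without the block these counts were 95, 1315 and 2506, and 53, 343 and 1898. In the steps it called 1103 (582 without it) and 4 (0) with 10 nm, and 82 (54) and 534 (251) with 500 nm silica.

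Array weights, whose estimation stopped before convergence, called 1219, 3152 and 6254 genes at the 10 nm doses, 371, 2317 and 4854 at the 500 nm doses, and 2163, 320, 268 and 2219 in the 4 steps. They called the step of Ccrl2 from 10 nm mid to high (-0.49). They turned the sign of Cxcr4 from 10 nm mid to high (-0.047), Ccrl2 at the 10 nm high dose (-0.014) and Ccr1 at the 10 nm low dose (-0.049). For Ccr2 they gave 0.0098 at the 10 nm mid, 0.0088 at the 500 nm mid and 0.0245 at the 500 nm high dose, and -0.11 from 10 nm mid to high.

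The 2 groups alone called 28, 658 and 692 genes at the 10 nm doses, 13, 124 and 761 at the 500 nm doses and 54 from 500 nm mid to high. There the Ccrl2 value of 0.64 at the 10 nm low dose and the Ccr1 value of 0.71 at the 500 nm high dose were no longer called.

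Quantile normalization called the 10 nm step of Cxcr4 from low to mid (0.55) and ended the Ccr1 call at the 500 nm high dose (0.53). It gave -0.0098 for Ccrl2 at the 10 nm high dose, -0.0895 for Ackr2 at the 500 nm high dose, and for Ccr2 -0.027 at the 10 nm low dose and -0.047 from 10 nm mid to high. Centring gave 0.036 for Ccrl2 from 10 nm low to mid, and for Ccr2 0.013, 0.082 and 0.027 at the 10 nm mid, 10 nm high and 500 nm high doses. With rescaling the Cxcr4 step from 10 nm low to mid was 0.55 and called, Ccrl2 had 0.032 in that step and Ccr2 -0.0002 at the 10 nm low dose.

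The mean of probe sets gave 0.37, no longer called, for Ccr1 from 10 nm low to mid and 0.41 for its difference between the mid doses. For Ccr2 it gave 0.031 and 0.0077 at the 10 nm mid and high doses, and 0.023, -0.024 and -0.022 in the steps from 10 nm low to mid, 10 nm mid to high and 500 nm mid to high. Without all replicate 3 arrays, a choice made after seeing the data, the Ccrl2 value at the 10 nm mid dose was 0.41 and not called, and at the high dose -0.095. Ccr1 then had -0.036 at the 10 nm low dose and 0.62 between the mid doses, and Ccr2 -0.0096 from 10 nm mid to high.

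With 1 array left out, Ccrl2 ran from 0.54 to 0.71 at the 10 nm low dose and from -0.13 to 0.018 between the 10 nm low and mid doses. Ccr1 ran from -0.012 to 0.31 at the 10 nm low dose and from -0.025 to 0.27 from 500 nm low to mid. Ccr2 ran from -0.059 to 0.16, -0.12 to 0.043 and -0.13 to 0.087 at the 10 nm doses and from -0.15 to 0.045 at the 500 nm high dose. In the steps Ccr2 ran from -0.061 to 0.15 (10 nm mid to high), from -0.26 to 0.0105 (500 nm low to mid) and from -0.055 to 0.21 (500 nm mid to high). Ackr2 ran from -0.058 to 0.25 at the 500 nm high dose.

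Counts of called genes with 1 array left out ran from 60 to 96 at the 10 nm low dose, the lowest without its replicate 1. They ran from 35 to 50 at the 500 nm low dose, the lowest without its replicate 2, and from 216 to 298 at the 500 nm mid dose, with 225 without its replicate 1 and 216 without replicate 3. From 10 nm low to mid they ran from 336 to 458, with 336 without 10 nm low replicate 2 and the same number without 10 nm mid replicate 1. From 10 nm mid to high they were 0 or 1. From 500 nm low to mid they ran from 29, without 500 nm low replicate 2, to 43, with 34 without 500 nm mid replicate 2. From 500 nm mid to high they ran from 100 to 175, with 121, 141 and 100 without mid replicates 1, 2 and 3, and 139 and 126 without high replicates 1 and 3.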
